A study of Mus musculus with 4 samples.

Results

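The citric acid cycle enzymes were followed through 9 genes, *Cs*, *Idh3a*, *Idh3b*, *Idh3g*, *Ogdh*, *Sucla2*, *Suclg1*, *Sdha* and *Mdh2*, chosen by name out of 19938 genes measured. Each of the 9 was read by 1 probe set that names no other gene. Subcutaneous adipose tissue (SAT) of 16-week-old male C57Bl6 mice was hybridized to 4 Affymetrix MoGene 1.0 ST arrays. All mice carried loxP-flanked alleles of *Napepld*, which encodes an enzyme that makes N-acylethanolamines. The WT groups were NAPE PLD lox/lox without Cre. The cKO groups were AP2 Cre NAPE PLD lox/lox, with Cre driven by the *Fabp4* (aP2) promoter, which acts mainly in adipocytes, so that other cells of the tissue can keep the gene. Mice were fed a control diet (CT, AIN93M) or a high-fat diet (HFD, D12492) for 8 weeks, and the 4 groups are named by genotype and diet (WT-CT, WT-HFD, cKO-CT and cKO-HFD). RNA of the mice of a group was pooled before labelling, from 4 to 5 mice per the labels. Each group is therefore 1 array, the spread between mice is not seen, and the differences given here have neither a replicate check nor a p-value.

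The citric acid cycle runs in the mitochondrial matrix. It takes up acetyl-CoA from pyruvate and fatty acids, releases carbon dioxide, and passes electrons to the respiratory chain. In white adipocytes it also supplies citrate, which leaves the mitochondrion as the carbon source of fatty acid synthesis. In brown and beige adipocytes it feeds heat production, and skeletal muscle is another tissue rich in these enzymes.

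Values are log2 levels per gene. A call of higher or lower means a ratio of at least 1.5-fold between a pair of arrays, which is 0.585 on the log2 scale. Olfactory receptor (*Olfr*) genes, which adipose tissue is not known to use, gave a background, and 95% of them lay below 5.28 to 5.50 on the 4 arrays. All 9 cycle genes were above it on every array, with levels from 8.20 to 11.43. *Napepld* itself had log2 levels of 8.31 in WT and 7.78 in cKO on CT, and 8.01 in WT and 7.94 in cKO on HFD. Neither genotype ratio reached 1.5-fold, and since the place of its probe set in the gene is not known here, this level does not check the labels. White adipocyte markers were high on all arrays, and the 9 of 10 that were measured, among them *Adipoq*, *Plin1* and *Fabp4*, had log2 levels of 10.42 to 13.16.

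All 9 genes had their highest level on WT-CT and their second highest on cKO-CT. This order of WT-CT first and cKO-CT second was held by 11.0% of all genes, and by 16.8% of the 5362 genes whose log2 level averaged at least 7. The lowest level was on cKO-HFD for 6 genes and on WT-HFD for *Cs*, *Idh3g* and *Mdh2*. Averaged over the 9 genes after centring each on its own mean, the log2 level stood at 0.53 in WT and 0.09 in cKO on CT, and -0.30 in WT and -0.32 in cKO on HFD. In a bulk tissue, fewer cells of a type and less RNA per cell cannot be told apart.

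*Cs* encodes citrate synthase, which joins acetyl-CoA to oxaloacetate and opens the cycle. Its log2 level was 11.13 in WT and 10.69 in cKO on CT, and 10.28 in WT and 10.51 in cKO on HFD. It was lowest on WT-HFD, at 55.5% of the WT-CT level, and the HFD arrays differed by 0.23 in favour of cKO-HFD.

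NAD-dependent isocitrate dehydrogenase, the step that releases the first carbon dioxide, is built from the products of *Idh3a*, *Idh3b* and *Idh3g*. *Idh3a*, the catalytic subunit, had log2 levels of 10.50 in WT and 10.13 in cKO on CT, and 9.91 in WT and 9.88 in cKO on HFD. *Idh3b* had 11.06, 10.54, 10.04 and 9.78 in the same order, the widest span of the 9 genes at 1.29. *Idh3g*, a regulatory subunit, had 11.43, 11.14, 10.46 and 10.66. The subunits kept the same order on the CT arrays but parted on HFD, where cKO-HFD was below WT-HFD for *Idh3b* (-0.26), close to it for *Idh3a* (-0.03) and above it for *Idh3g* (0.20).

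*Ogdh* encodes the first component of the 2-oxoglutarate dehydrogenase complex, which makes succinyl-CoA. Its log2 level was 11.19 in WT and 10.79 in cKO on CT, and 10.34 in WT and 10.33 in cKO on HFD. Both HFD arrays lay at nearly the same level, and of the 9 genes *Ogdh* was nearest to their mean pattern.

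Succinyl-CoA synthetase pairs the alpha subunit from *Suclg1* with a beta subunit, which is made from *Sucla2* in the ATP-forming enzyme. *Suclg1* had log2 levels of 9.23 in WT and 8.65 in cKO on CT, and 8.32 in WT and 8.20 in cKO on HFD. *Sucla2* had 9.43, 8.79, 8.50 and 8.33 in that order. Both partners stepped down in the same order over the 4 arrays, and their log2 ratios differed from each other by less than 0.1 in every comparison.

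*Sdha* encodes the flavoprotein of succinate dehydrogenase, which is also complex II of the respiratory chain. Its log2 level was 10.97 in WT and 10.43 in cKO on CT, and 9.93 in WT and 9.80 in cKO on HFD. *Mdh2*, mitochondrial malate dehydrogenase, which regenerates oxaloacetate, had 11.31, 11.18, 11.00 and 11.09. The span over the arrays was 1.17 for *Sdha* and 0.31 for *Mdh2*, the narrowest of the 9 genes.

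**Figure D1:**
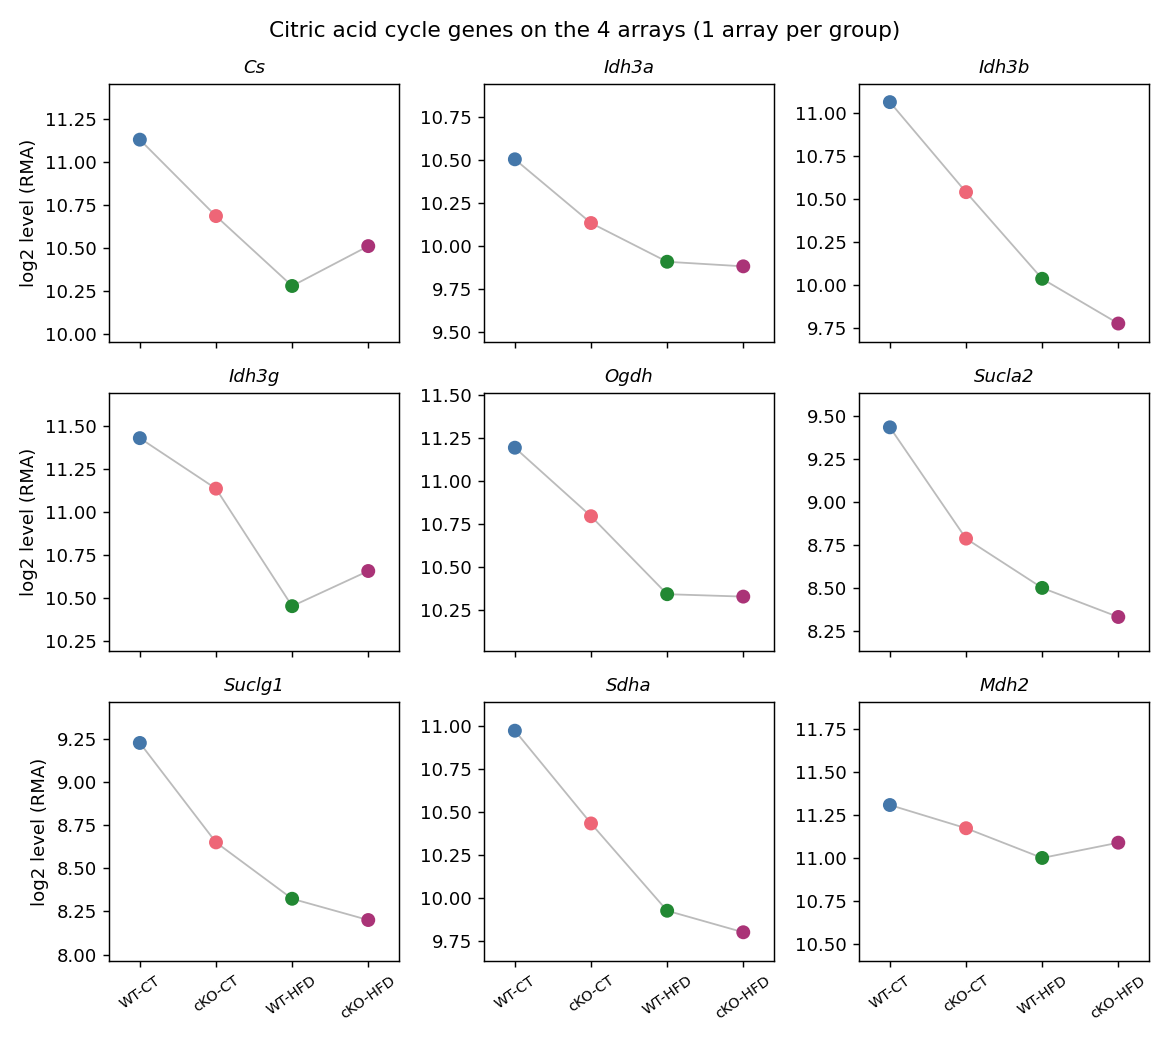
Log2 level (vertical axis, RMA) of the 9 citric acid cycle genes, 1 point per array, in the order WT-CT, cKO-CT, WT-HFD, cKO-HFD, with all panels spanning the same range and grey lines joining the points only as a guide. Every gene is highest on WT-CT and second on cKO-CT, and *Mdh2* spans 0.31 where *Idh3b* spans 1.29.

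High-fat feeding of WT mice went with the widest differences of the 4 comparisons for these genes. In WT-HFD over WT-CT, 8 of the 9 genes were lower by at least 1.5-fold and none was higher, where 2.67% of all genes were lower and 3.16% higher. Their median log2 ratio was -0.90, against -0.004 over all genes and 0.03 over those whose log2 level averaged at least 7, of which 5.02% were lower. *Sdha* (-1.05, 48.5% of the WT-CT level) and *Idh3b* (-1.03, 49.1%) were past 2-fold. *Idh3g* had -0.98, *Sucla2* -0.93, *Suclg1* -0.90, *Ogdh* -0.85 and *Cs* -0.85. *Idh3a* lay just inside the 1.5-fold size with -0.59, and *Mdh2*, at -0.31, was the gene that did not reach it.

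In cKO mice the diet difference was in the same direction and narrower. In cKO-HFD over cKO-CT all 9 log2 ratios were below 0, and *Idh3b* (-0.76) and *Sdha* (-0.63) were the 2 genes past 1.5-fold. None was higher. Of all genes, 2.17% were lower and 1.82% higher. The median was -0.46, against 0.02 over all genes and -0.08 over those whose log2 level averaged at least 7, of which 4.07% were lower. *Mdh2* had the smallest ratio (-0.08), followed by *Cs* (-0.17) and *Idh3a* (-0.25).

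On the control diet, cKO-CT lay below WT-CT for all 9 genes, mostly within 1.5-fold. The median log2 ratio was -0.44, against -0.005 over all genes and 0.11 over those averaging at least 7, of which 0.783% were lower. *Sucla2* was the 1 gene called lower (-0.65, 63.9% of the WT-CT level), and none was called higher, where 1.52% of all genes were lower and 1.64% higher. Just outside the size lay *Suclg1* (-0.58, 1.49-fold), *Sdha* (-0.54) and *Idh3b* (-0.52). After cyclic loess between the arrays these also passed, and 4 of 9 genes were then called lower, where 1.27% of all genes were. *Mdh2* had the smallest ratio (-0.13).

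On HFD, the cycle genes differed little between the cKO and WT arrays. In cKO-HFD over WT-HFD no cycle gene was called in either direction, where 2.11% of all genes were lower and 1.04% higher. The log2 ratios ran from -0.26 for *Idh3b* to 0.23 for *Cs*, 6 below 0 and 3 above, with a median of -0.03 against 0.03 over all genes and 0.02 over those averaging at least 7, of which 3.17% were lower. The absence of a call in a pair of single arrays does not show that the levels were equal. Markers of skeletal muscle had a median of -4.01 between the same arrays, and their part in the cycle ratios was not tested.

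The genotype ratio was thus lower on CT than on HFD for each of the 9 genes. The genotype ratio on HFD minus that on CT ran from 0.22 for *Mdh2* to 0.68 for *Cs*, with a median of 0.41. Over all genes the median of this difference was 0.02, and 52.9% of genes were above 0. With 1 array per group the difference has no test. The comparisons share arrays, so they are not independent of each other.

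**Figure D2:**
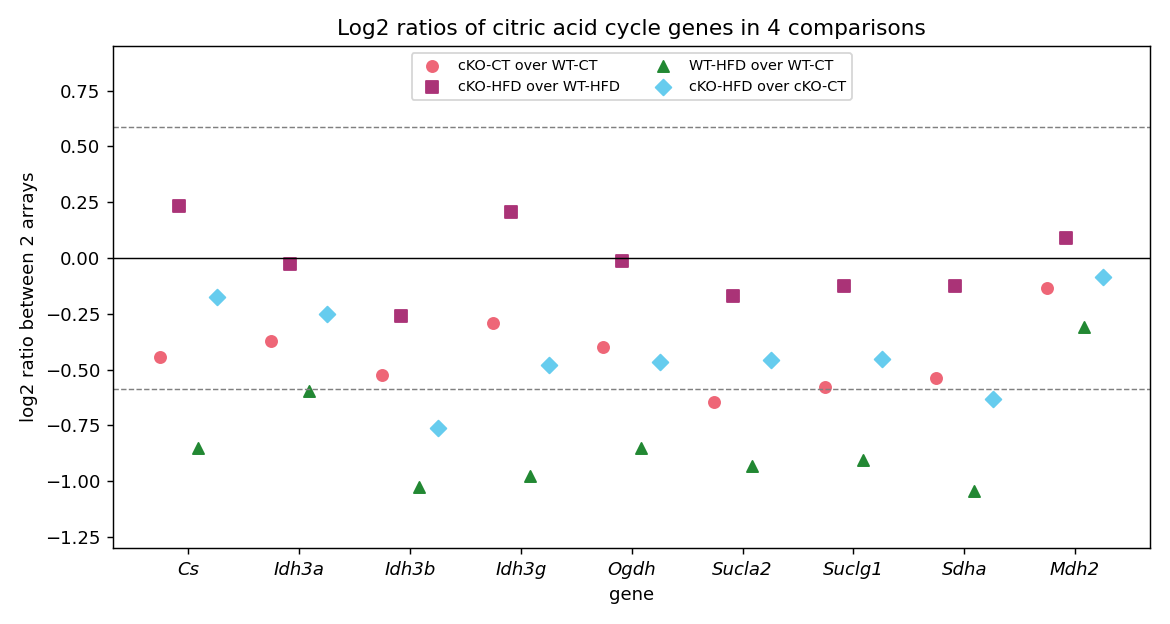
Log2 ratio between 2 arrays (vertical axis) of each of the 9 citric acid cycle genes in 4 comparisons, 1 symbol per comparison, with dashed lines at a 1.5-fold difference. The WT-HFD over WT-CT ratios lie lowest, between -1.05 and -0.31, and the cKO-HFD over WT-HFD ratios lie around 0, between -0.26 and 0.23.

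Another 7 genes of the cycle were examined as a list. In WT-HFD over WT-CT 6 of 7 were called lower, with a median of -0.75. In cKO-CT over WT-CT none was called and 6 had ratios below 0, with a median of -0.42. *Dlst* and *Dld*, the other components of the 2-oxoglutarate dehydrogenase complex, had -0.75 and -0.83 in WT-HFD over WT-CT, next to -0.85 for *Ogdh*. *Fh1*, fumarase, had -1.03 there.

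Within succinate dehydrogenase, the iron-sulphur subunit gene *Sdhb* had -0.75 in WT-HFD over WT-CT. The membrane anchor genes had -0.48 (*Sdhc*, not called) and -0.88 (*Sdhd*). These 3 ratios were all smaller in size than that of *Sdha* (-1.05). The assembly factor genes of this enzyme, 4 of 4 measured, gave no call in any comparison, and their median log2 ratio in WT-HFD over WT-CT was -0.04. One of them, *Sdhaf4*, lay near the *Olfr* background.

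The beta subunits of succinyl-CoA synthetase parted by genotype. *Suclg2*, which encodes the beta subunit of the GTP-forming enzyme, had log2 levels of 7.59 in WT and 7.68 in cKO on CT, and 6.95 in WT and 7.03 in cKO on HFD. Its level was not lower on cKO-CT than on WT-CT (0.09, with 0.12 and 0.06 from its 2 probe sets), where *Sucla2* had -0.65. On the diet axis *Suclg2* was lower by 0.65 on the log2 scale in both genotypes. Whether the subunits differ from each other beyond the spread between mice was not tested.

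Enzymes that run related reactions outside the cycle, or with NADP, gave other values. Of 9 measured, 2 were lower in cKO-CT than in WT-CT, 2 in the WT diet comparison and 1 in cKO-HFD over cKO-CT, with medians of -0.11, -0.33 and -0.12. The 2 were *Acly*, which cleaves exported citrate for lipid synthesis (-0.93 and -3.62), and *Me1*, cytosolic malic enzyme, a source of NADPH (-0.65 and -1.80). *Me1* was also the 1 gene of this list called higher in cKO-HFD over WT-HFD (0.71). The NADP-dependent *Idh1* (cytosolic) and *Idh2* (mitochondrial) had -0.33 and -0.30 in WT-HFD over WT-CT, next to -0.59 to -1.03 for the *Idh3* genes. Cytosolic malate dehydrogenase, *Mdh1*, had -0.58 there, against -0.31 for the mitochondrial *Mdh2*, and neither was called.

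The supply of acetyl-CoA was read from the pyruvate dehydrogenase complex and from fatty acid oxidation. All 4 genes of the former were lower in WT-HFD over WT-CT, from -1.04 (*Pdhx*) to -2.09 (*Pdhb*), with a median of -1.32. In cKO-CT over WT-CT *Pdhb* was the 1 gene called (-1.14) and the median was -0.545. Of 15 measured genes of fatty acid oxidation, 10 were lower in WT-HFD over WT-CT and 3 in cKO-CT over WT-CT, with medians of -0.80 and -0.40. *Hadhb* (-1.67 and -0.68) and *Hadha* (-1.43 and -0.65), which build the mitochondrial trifunctional protein, were among them. None of these genes was called in cKO-HFD over WT-HFD.

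The respiratory chain takes the electrons of the cycle. It differed in the same direction as the 9 cycle genes, whose medians were -0.90 in WT-HFD over WT-CT and -0.44 in cKO-CT over WT-CT. Of 21 measured subunit genes, 16 were lower in WT-HFD over WT-CT and 2 in cKO-CT over WT-CT, with medians of -0.66 and -0.38. All 21 had WT-CT as the highest and cKO-CT as the second highest array. *Ndufs1* of complex I had -1.11 and -0.67, and *Cox5a* of complex IV had -0.88 and -0.63. Mitochondrial proteins of other functions (import, chaperones, fusion, outer membrane channels) had medians of -0.42 and -0.17 over 15 genes, with 2 and 0 called lower. Fatty acid synthesis, the cytosolic use of citrate, had medians of -2.22 and -0.38 over 8 genes, with 6 and 3 called lower, and *Elovl6*, a fatty acid elongase, had the lowest ratio in WT-HFD (-5.05). These lists are set side by side as values, and whether the cycle differs from any of them was not tested.

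**Figure D3:**
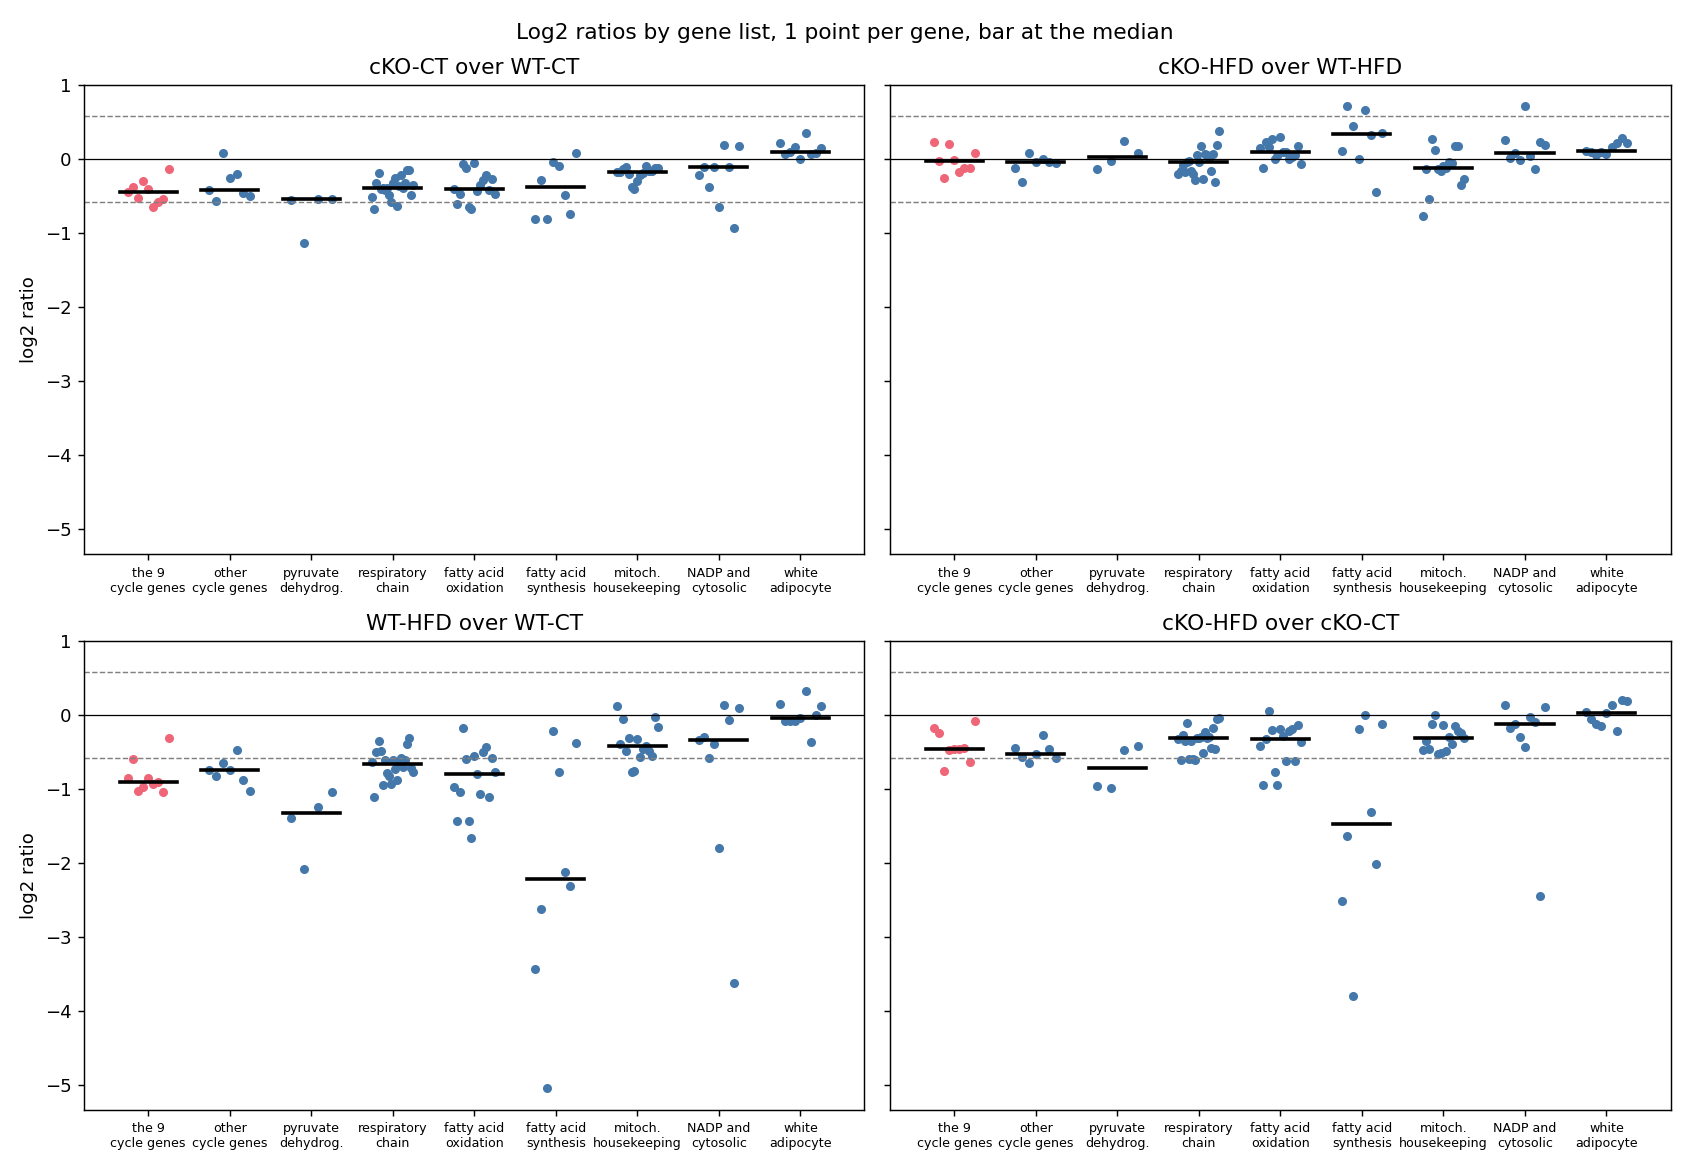
Log2 ratio (vertical axis) of every gene of 9 lists in 4 comparisons, 1 point per gene, with the 9 cycle genes in red, black bars at the median and dashed lines at a 1.5-fold difference. The cycle medians are -0.44 and -0.03 for the genotypes on CT and on HFD, and -0.90 and -0.46 for the diets in WT and in cKO, and the white adipocyte medians stay between -0.05 and 0.10.

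Among regulators of mitochondrial genes, 4 of 9 were lower in WT-HFD over WT-CT and 2 in cKO-CT over WT-CT. One of the 4, *Tfam* (-0.64), did not reach the *Olfr* background on any array, so its call lies between background levels. *Ppara*, a nuclear receptor of fatty acid oxidation, had -1.95 and -0.91. *Ppargc1b*, a coactivator of mitochondrial genes, had -1.38 and -0.65, and the related *Ppargc1a* had -0.99 and -0.54 as the mean of 2 probe sets. In cKO-CT over WT-CT these disagreed for *Ppargc1a*, with -0.33 from the dimmer one, which lay below the *Olfr* background on both HFD arrays, and -0.75, past 1.5-fold, from the brighter one. *Esrra*, the nuclear receptor ERRα, had -0.53 and -0.43 and was not called. *Nrf1* and *Gabpa* encode factors that bind promoters of respiratory genes. They had 0.23 and -0.01 in WT-HFD over WT-CT, and 0.41 and 0.09 in cKO-CT over WT-CT. Neither was called.

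The promoters of the cycle genes were searched for the letters that ERRα, NRF1 and GABPA are known to bind, since the genes shared their order over the arrays. RefSeq promoter windows of GRCm38.p6, from 250 bases before to 50 after the annotated start, were matched for 8 of the 9 genes. *Idh3a* had none. *Ogdh* had 6 windows and the others 1 each. The letters GCGCNNGCG (NRF1), on either strand, were found in windows of 4 genes (*Idh3g*, *Ogdh*, *Sdha* and *Sucla2*) and in 13.5% of 27025 genes. CCGGAAG (GABPA, an ETS factor) was found for *Idh3b* and *Idh3g* and in 9.93% of genes. AAGGTCA, a half-site of ERRα, was found for *Ogdh* and in 5.38% of genes. In these windows the letters of different factors did not overlap, and the NRF1 letters overlapped their own reverse complement in *Sdha* and *Sucla2*. A gene was counted if any of its windows held the letters, so *Ogdh*, with 6 windows, had more places for a match. The shares over all genes were not matched for base content or number of windows, and no difference from them was tested. A match describes the letters and is not a bound site.

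The 250 bases before the start are shown for *Sdha*, which held the NRF1 letters at 3 places, for *Idh3g*, which held both NRF1 and GABPA letters, and for *Sucla2*, the gene called lower in cKO-CT. They are written 5′ to 3′ along the gene, with the matched letters in capitals.
Sdha promoter, chr13:74350241-74350490, minus strand: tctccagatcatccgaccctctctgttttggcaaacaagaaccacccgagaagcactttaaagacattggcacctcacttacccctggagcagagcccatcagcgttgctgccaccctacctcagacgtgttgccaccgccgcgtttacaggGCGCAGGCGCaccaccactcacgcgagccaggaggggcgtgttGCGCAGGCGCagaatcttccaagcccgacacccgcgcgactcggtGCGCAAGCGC
Idh3g promoter, chrX:73786898-73787147, minus strand: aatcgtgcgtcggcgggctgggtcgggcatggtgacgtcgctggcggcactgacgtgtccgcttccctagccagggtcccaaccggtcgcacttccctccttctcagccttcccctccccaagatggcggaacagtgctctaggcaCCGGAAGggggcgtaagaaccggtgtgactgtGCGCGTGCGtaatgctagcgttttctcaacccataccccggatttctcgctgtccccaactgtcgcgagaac
Sucla2 promoter, chr14:73552536-73552785, plus strand: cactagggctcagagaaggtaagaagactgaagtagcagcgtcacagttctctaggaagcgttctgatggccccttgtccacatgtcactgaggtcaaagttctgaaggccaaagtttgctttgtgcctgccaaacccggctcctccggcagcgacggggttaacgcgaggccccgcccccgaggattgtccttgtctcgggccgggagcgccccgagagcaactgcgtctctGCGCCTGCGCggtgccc

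**Figure D4:**
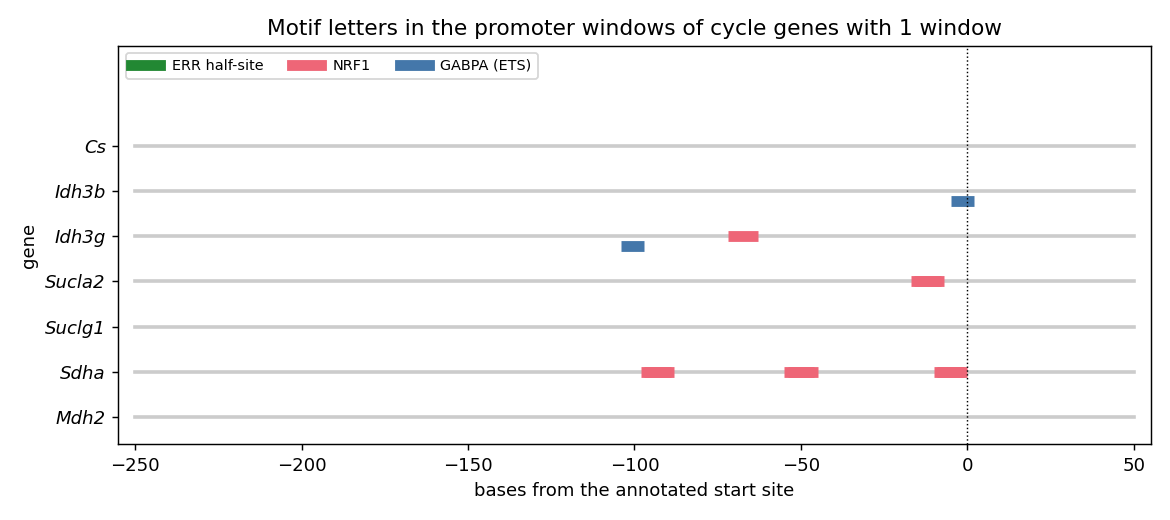
Places of the NRF1, GABPA and ERR letters in the promoter windows of the 7 cycle genes with a single window, by bases from the annotated start (horizontal axis, start at 0). *Sdha* holds the NRF1 letters at 3 places before the start, *Idh3g* and *Sucla2* at 1 each, and none of the 7 holds the ERR letters.

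Markers of other cell types moved between the same arrays. Of 8 brown and beige adipocyte markers, 6 were lower in cKO-CT over WT-CT and 7 in WT-HFD over WT-CT, with medians of -0.75 and -1.47, and 5 were lower in cKO-HFD over cKO-CT (-1.49). *Ucp1*, the uncoupling protein of brown fat, had log2 levels of 11.52 in WT and 9.96 in cKO on CT, and 7.10 in WT and 6.74 in cKO on HFD. In cKO-HFD over WT-HFD the 8 markers were mixed, with 4 log2 ratios below 0, 4 above and a median of -0.04. There *Cox7a1* was called lower (-1.53) and *Elovl3* higher (0.93), the latter below the *Olfr* background on both arrays. The summed level of the 8 markers, taken back from the log2 scale, was 12400 in WT and 6643 in cKO on CT. On HFD it was 3223 in WT and 2423 in cKO. Such a sum is weighted to the brightest markers, which on HFD were *Cox8b* and *Cox7a1*. There *Cox8b* had log2 levels of 10.81 in WT and 10.56 in cKO, and *Cox7a1* had 9.78 and 8.26. Skeletal muscle markers had a median of -4.01 between the HFD arrays, and the part of muscle RNA in these sums was not tested. The sums put WT-CT first and cKO-CT second, as did all 9 cycle genes and 11.0% of all genes. Between the HFD arrays the cycle genes were split, with 6 log2 ratios below 0 and 3 above. Some were as small in size as -0.01 (*Ogdh*) and -0.03 (*Idh3a*). The share of all genes with the full order of the sums was not counted. On each array 1 or 2 of the 8 markers lay below the *Olfr* background. *Ucp1* was above it on every array. The part of these cells in the cycle levels was not tested.

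Skeletal muscle markers went in another order. All 18 were measured, and their summed level was 19330 in WT and 19640 in cKO on CT, and 58140 in WT and 4533 in cKO on HFD. In WT-HFD over WT-CT 16 of 18 were higher, with a median of 1.76, where the cycle median was -0.90. In cKO-HFD over WT-HFD 18 of 18 were lower, with a median of -4.01, where the cycle median was -0.03. Muscle markers were far above the *Olfr* background on WT-CT as well, with a median of 9.36, and the part of muscle RNA in the cycle levels was not tested.

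The 9 measured white adipocyte markers had no call in any comparison, with medians from -0.05 to 0.10. Macrophage markers went the other way to the cycle in the comparisons with WT-CT. Of 14, 5 were higher in cKO-CT and 9 in WT-HFD, with medians of 0.50 and 0.77, and their summed level was 4041 in WT and 5797 in cKO on CT, and 7118 in WT and 5200 in cKO on HFD. Pancreatic acinar markers stood out on WT-CT, with a summed level over 8 measured genes of 1521 there and 358 to 418.5 on the other arrays. WT-CT is the array on which all 9 cycle genes were highest, and it is the only array of its group. The part of macrophage or acinar RNA in the cycle levels was not tested.

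**Figure D5:**
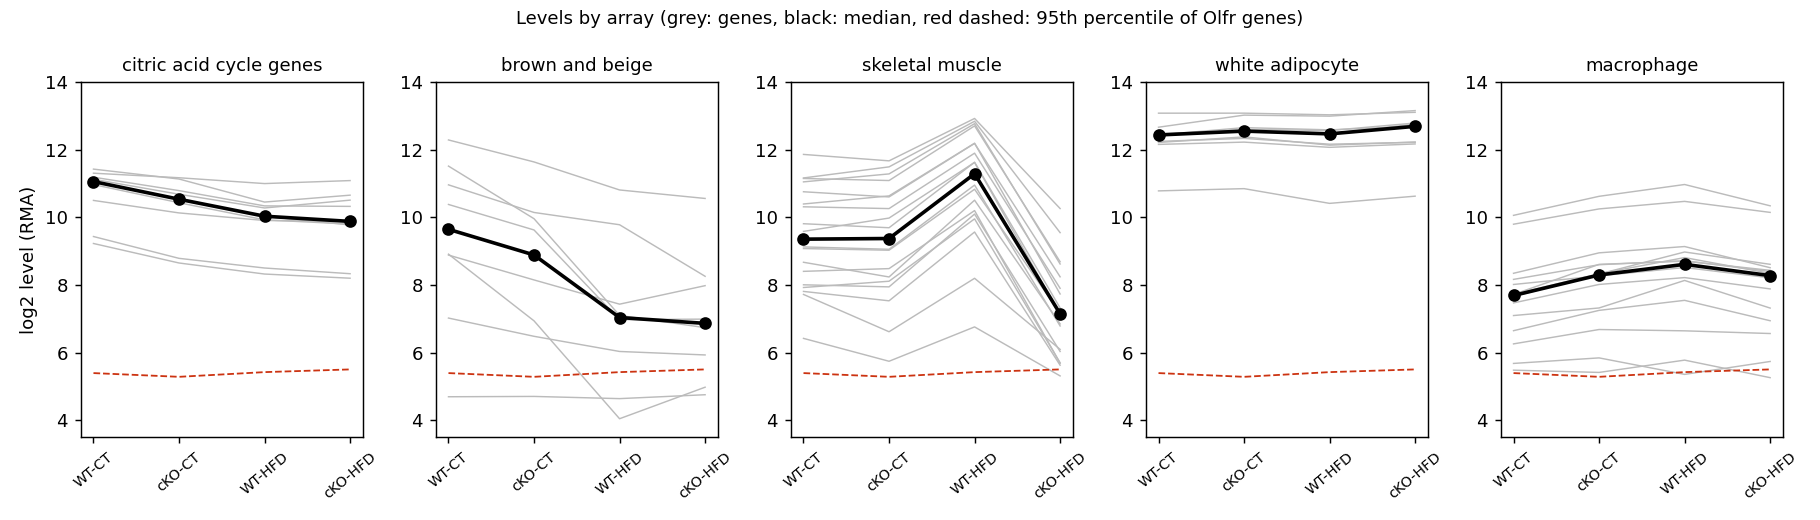
Log2 level (vertical axis, RMA) on the 4 arrays of the 9 cycle genes and of 4 marker lists, with 1 grey line per gene, the median in black and the 95th percentile of the *Olfr* genes in red. The skeletal muscle median is 11.29 on WT-HFD and 7.14 on cKO-HFD, where the median of the cycle genes is 10.04 and 9.88.

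Genes outside the 9 with the most similar pattern were sought among those whose log2 level averaged at least 7, by the Euclidean distance over the 4 arrays from the mean pattern of the 9. The 6 nearest were *Sdhd* (distance 0.044 on the log2 scale), *Eci1* (0.067), *Uqcrq* (0.067), *Dlst* (0.073), *Scp2* (0.076) and *Bckdha* (0.079). *Sdhd* and *Dlst* are cycle genes, *Eci1* acts in the oxidation of unsaturated fatty acids, *Uqcrq* is a subunit of complex III and *Bckdha* of the branched-chain ketoacid dehydrogenase. The 9 genes themselves lay between 0.044 (*Ogdh*) and 0.49 (*Mdh2*). With 4 arrays many genes share a pattern, so the distances are a description.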

How the data were processed

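The authors deposited log2 values per probe set, made by RMA (background correction, quantile normalization and probe summary). The methods name RMA-Sketch in the Affymetrix APT suite and the submitters' processing notes name Affymetrix Expression Console, with versions not given in the sources used here. RMA assumes like distributions on all arrays, so a shift shared by most genes cannot be seen. Array medians over 35556 probe sets were 5.55 to 5.60, and arrays correlated across probe sets with r of 0.979 to 0.986. Precision is limited by the 4 arrays.

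Probe sets took their names from GEO's platform annotation, which may be outdated. Of them 21789 had 1 name, 1621 several and 12146 none. Gene levels were means over probe sets with 1 name, with no detection filter. Log2 ratios were taken between genotypes within each diet and between diets within each genotype, and counts past 1.5-fold were set beside those over all genes, with no test. The 9 genes, the lists, the motifs and the steps were chosen with earlier results of these data known. Genes could be named if among the 9, the 6 nearest in pattern, or the cycle, NADP and cytosolic, anaplerosis and pyruvate dehydrogenase lists, if among the 3 largest ratios of another list in a comparison (leaving out genes that no array put over the *Olfr* background), and for *Napepld*, *Ucp1* and *Acod1*. *Esrra*, *Nrf1*, *Gabpa*, *Tfam*, *Sdhaf4*, *Cox8b*, *Adipoq*, *Plin1* and *Fabp4* were named beside this rule, after their values were seen. Of 178 listed symbols 168 were measured.

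Alternatives were the brightest probe set per gene, median centring, cyclic loess (span 0.7, 3 iterations), filters at the *Olfr* background or at an average log2 level of 7, and a 2-fold size. Calls were tested on simulated arrays with planted 2-fold differences, and the motif search on planted letters. Differences near 1.5-fold were not planted, so this does not check calls close to that size. Software was R 4.3.3 (limma 3.58.1) and Python 3.11.15 (matplotlib 3.10.9, numpy 2.4.6, pandas 2.3.3).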

Additional observations from a re-analysis of the deposited data

Results flagged for a closer look

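For *Cs*, *Idh3g* and *Mdh2* the single genotype ratio was below 0 on CT and above 0 on HFD. The log2 ratios were -0.44 and 0.23 for *Cs*, a difference of 0.68. They were -0.29 and 0.20 for *Idh3g*, a difference of 0.50, and -0.13 and 0.09 for *Mdh2*, a difference of 0.22. None of the 6 ratios reached 1.5-fold, the difference was not tested, and 52.1% of all genes had opposite signs on the 2 diets.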

How the results depend on the processing

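With 1 array per group no replicate could be left out. No paired analysis was possible because each group has 1 array. Cyclic loess raised the cycle genes called lower in cKO-CT over WT-CT from 1 to 4, adding *Idh3b*, *Suclg1* and *Sdha*. At a 2-fold size 0 were called there, 2 (*Idh3b* and *Sdha*) in WT-HFD over WT-CT and 0 in cKO-HFD over cKO-CT, where 0.186%, 0.647% and 0.562% of all genes were lower. The other counts of the 9 genes were identical under the alternatives run. Their median ran from -0.52 to -0.42 in cKO-CT over WT-CT, from -0.94 to -0.90 in WT-HFD over WT-CT and from -0.48 to -0.41 in cKO-HFD over cKO-CT, and stayed at -0.03 in cKO-HFD over WT-HFD. The other gene lists and the markers were not run under these alternatives. Of 36 single log2 ratios, none moved by more than 0.093 under another probe set, centring or loess. All 9 genes passed both filters on low levels.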

Other observations

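Genes that feed or drain the cycle gave mixed values. Of 11 measured, 4 were lower in WT-HFD over WT-CT and none was called in cKO-CT over WT-CT. *Pcx*, pyruvate carboxylase, which refills oxaloacetate, had log2 levels of 11.15 in WT and 10.83 in cKO on CT, and 10.13 in WT and 10.50 in cKO on HFD, with the WT-HFD array lowest as for *Cs*. *Pck1*, which takes oxaloacetate out towards glycerol synthesis, had -0.81 in WT-HFD over WT-CT and -0.04 in cKO-CT over WT-CT. *Pcca* and *Pccb*, the subunits of propionyl-CoA carboxylase, had -0.72 and -0.84 in WT-HFD over WT-CT. *Acod1*, which makes itaconate from a cycle intermediate in activated macrophages, did not reach the *Olfr* background on any array.

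The aspartate aminotransferase genes *Got1* and *Got2* were the 2 genes of this list lower in cKO-HFD over WT-HFD, by -1.18 and -0.89 on the log2 scale, and the aspartate and glutamate carrier gene *Slc25a12* had -1.83 there and 1.30 in WT-HFD over WT-CT. Skeletal muscle markers had medians of -4.01 and 1.76 in the same comparisons, and their part in these values was not tested. Of 8 measured carriers of cycle intermediates, *Slc25a1*, which exports citrate, had -1.47 in WT-HFD over WT-CT and 0.68 in cKO-HFD over WT-HFD. *Mpc1*, of the mitochondrial pyruvate carrier, had -1.22 and 0.13.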
